A study of Mus musculus with 18 samples.

Results

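A set of 10 genes that cells are known to switch on when oxygen is short, and that lie outside the glycolytic pathway, were followed across 6 groups of mouse kidneys: Epo, Adm, Car9, P4ha1, P4ha2, Bnip3, Higd1a, Kdm3a, Ndrg1 and Ankrd37. They were chosen by symbol from a table of 31787 genes, all 10 symbols were found, and 9 had enough counts to be tested. Epo did not pass the filter on low counts and is described by its counts.

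The kidneys came from a model of scarring, unilateral ureteral obstruction (UUO), in which 1 ureter is tied so that the kidney above it is injured, and RNA of a piece of whole kidney was sequenced from 3 kidneys in each group. Healthy kidneys came from mice with floxed Twist alleles but no Cre. The contralateral kidneys, which lie opposite a tied ureter, and the wild-type (WT) UUO kidneys came from the same Twist line: in each of these groups 2 mice carried Cdh5-CreERT2 without floxed alleles and 1 had floxed Twist without Cre. The 3 knockout groups were all UUO kidneys. In the Twist and Snail conditional knockouts (cKO) the floxed gene was deleted through Cdh5-CreERT2, a tamoxifen-inducible Cre under an endothelial promoter, and in the Myc cKO through GGT-Cre, a Cre of tubular epithelium. The Twist line was a mixture of C57BL6, 129sv and Balb/c, while the Snail and Myc lines held C57BL6 and Balb/c only. No WT UUO kidney of the Snail or Myc line was among the samples, so in those comparisons the line and the deletion cannot be told apart. Mice were 12 weeks old, or 11 to 12 weeks in the Myc group. The labels do not say how long the ureter had been tied or which kidneys shared an animal, and the p-values therefore speak only of the spread among the 18 kidneys.

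Cells sense oxygen through prolyl hydroxylases that mark the alpha subunits of hypoxia-inducible factor (HIF) for destruction by the VHL complex. When oxygen falls the marking stops, and HIF-1 or HIF-2 binds short DNA elements beside its target genes and raises their transcription. In the kidney HIF-2 in interstitial cells drives erythropoietin, whereas HIF-1 acts mainly in tubular cells, whose transport work consumes much oxygen. The genes described here serve oxygen delivery, pH control, collagen folding, mitochondrial turnover and chromatin, and many of them also answer to signals other than oxygen.

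The DNA letters that HIF recognises, ACGTG or GCGTG, were searched on both strands in the 250 bases before each gene's transcript start in RefSeq (GRCm38.p6, the same assembly as mm10). A promoter entry was matched for 9 of the 10 genes, all but Ndrg1, and each of the 9 held at least 1 core in at least 1 of its entries. The 9 genes had 11 entries, and entries 2 and 3 of Kdm3a held 0 cores. The count of genes is thus not the same measure as the share of windows that follows. Of all 32851 promoter windows of that length 38.6% held a core, 16.6% ACGTG and 28.2% GCGTG, and 16.7% held 2 or more. Bnip3 had 5 cores, Ankrd37 4, P4ha1 and P4ha2 3 each, Epo, Adm and Higd1a 2 each, and Car9 and Kdm3a 1 each. Overlapping matches were counted separately: those at 108 and 107 bases before the start in Bnip3, 155 and 152 in Ankrd37 and 70 and 66 in Higd1a. The 2 cores of Higd1a, those of Car9 and Kdm3a and 1 of Ankrd37 lay within bases that GENCODE annotates as exon. Windows of 3 genes are shown, up to the first annotated exon: that of Bnip3, which had the most cores and fell in WT UUO against both kinds of unobstructed kidney, and those of Adm and Ankrd37, whose levels were highest in the same WT UUO library. Cores are in capitals and may overlap, and on the opposite strand they read CACGT or CACGC.
Bnip3 (chr7:138909520-138909756, reverse strand): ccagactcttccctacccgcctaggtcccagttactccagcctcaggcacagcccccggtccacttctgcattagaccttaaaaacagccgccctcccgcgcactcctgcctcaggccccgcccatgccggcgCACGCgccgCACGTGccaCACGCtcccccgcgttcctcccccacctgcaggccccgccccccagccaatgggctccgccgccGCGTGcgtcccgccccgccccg
Adm (chr7:110627407-110627656, forward strand): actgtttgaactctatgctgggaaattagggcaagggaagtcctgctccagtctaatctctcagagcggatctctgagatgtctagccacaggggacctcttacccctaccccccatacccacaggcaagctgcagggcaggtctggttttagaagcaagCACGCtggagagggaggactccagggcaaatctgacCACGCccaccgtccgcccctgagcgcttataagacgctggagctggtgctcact
Ankrd37 (chr8:45999868-46000100, reverse strand): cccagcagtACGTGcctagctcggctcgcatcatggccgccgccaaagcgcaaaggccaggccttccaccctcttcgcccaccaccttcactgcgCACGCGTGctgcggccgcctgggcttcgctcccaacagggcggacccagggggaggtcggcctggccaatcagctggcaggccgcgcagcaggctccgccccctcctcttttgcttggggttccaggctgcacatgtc
A core in these windows is a match of letters, and no binding was measured here.

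**Figure D1:**
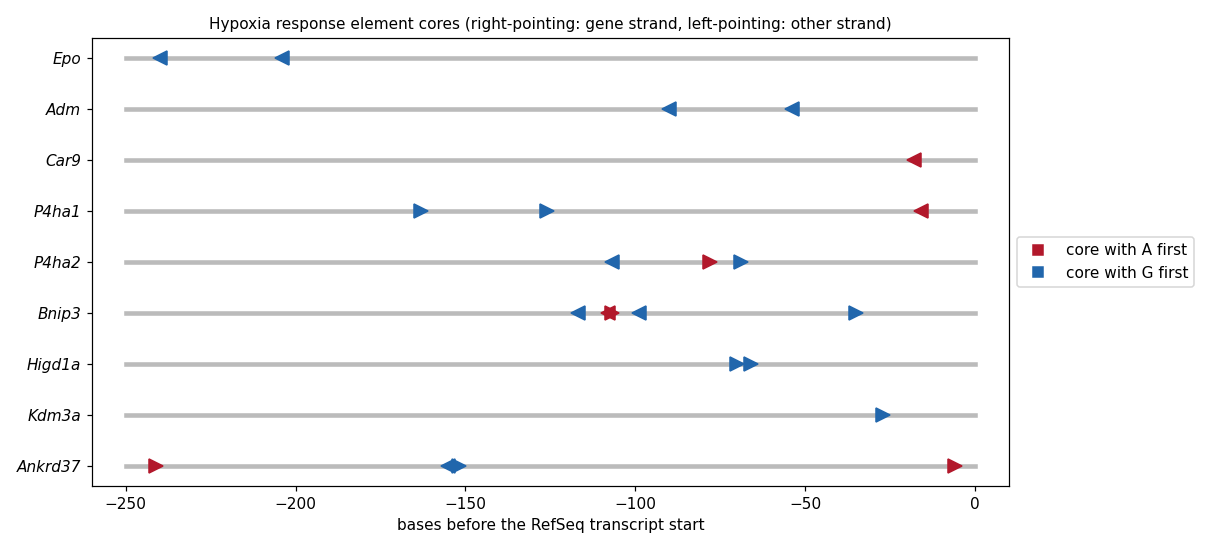
Positions of the HIF cores in the 250 bases before the RefSeq start of 9 genes, with distance from the start in bases on the x axis. Red marks cores with A as their first letter and blue those with G, and right-pointing triangles lie on the gene strand. In Bnip3, 4 of the 5 cores lie between 99 and 117 bases before the start.

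Total counts ran from 52.6 to 91.3 M per library, and levels are CPM, counts scaled to the size of each library, after TMM scaling. The totals and the makeup of the libraries moved with obstruction: totals were 78.1 to 91.3 M in unobstructed and 52.6 to 73.9 M in obstructed kidneys, and mitochondrial rRNA took 44.6 to 50.3% of counts in the former and 19.2 to 34.9% in the latter, with TMM factors of 0.554 to 0.757 and 1.01 to 1.37. The part of this in the results was not tested beyond the fits with other scaling factors and without mitochondrially encoded genes. The kidney label was checked against marker genes: all 7 proximal tubule markers were detected in every library, and their summed level was 10613 to 11929 CPM in healthy, 11814 to 15053 in contralateral and 636 to 1477 in WT UUO kidneys, and 2205 to 3755, 1521 to 2445 and 2099 to 3737 in Twist, Snail and Myc cKO UUO kidneys. Summed fibroblast and pericyte markers went the other way, from 223 to 312 CPM in unobstructed kidneys to 511 to 2491 in obstructed ones. Of the targeted genes, Twist1 was called lower in Twist cKO UUO than in WT UUO kidneys (log2 difference -2.59 ± 0.49, SE, adjusted p = 0.0172), while Snai1 in Snail cKO UUO (-0.61 ± 0.38, 0.487) and Myc in Myc cKO UUO (-0.45 ± 0.23, 0.217) did not pass the threshold. These are levels in whole kidney, whereas each deletion was aimed at 1 cell type.

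A pair of libraries stood apart for these genes and touch several results below. WT UUO replicate 1 was the highest of its group for 7 of the 10 genes (Epo, Adm, Car9, Bnip3, Higd1a, Kdm3a and Ankrd37), against 32.5% of all genes tested, and Myc cKO UUO replicate 3 for 7 of 10 (Epo, Adm, Bnip3, Higd1a, Kdm3a, Ndrg1 and Ankrd37), against 39.3%. The first was the lowest of its group for Ndrg1, against 37.6% of all genes tested. The second was the lowest for the other 3 (Car9, P4ha1 and P4ha2), against 39.9%. Snail cKO UUO replicate 1 was also the highest of its group for 7 genes, but none of them there lay as far from the other 2 libraries as Adm and Ankrd37 did in WT UUO replicate 1. In WT UUO replicate 1 the summed urothelial markers were 334 CPM, against 71.4 and 23.2 CPM in the other 2, and the proximal tubule markers 636 CPM, the lowest of all 18 libraries. Myc cKO UUO replicate 3 had the most proximal tubule (3737 CPM) and erythroid markers (171 CPM, against 24.8 and 47.9) of its group and the fewest fibroblast markers (511 CPM). The part of these markers in the results was not tested.

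Most of the genes that did change were lower, not higher, in obstructed kidneys. WT UUO and healthy kidneys differed in obstruction but also in genotype, as 2 of 3 WT UUO mice and 0 of 3 healthy mice carried Cre. The part of genotype was not tested beyond the fit with Cre presence as a covariate. In WT UUO against healthy kidneys Car9, Bnip3, Higd1a and Ndrg1 fell and Kdm3a rose. These were 5 of the 9 genes tested, where 56.3% of all genes tested changed, 29.2% higher and 27.1% lower. Groups did not overlap for 6 of the 9, and for 62.5% of all genes. Both shares are near those of genes at large, and the 9 genes were not higher as a group: their median log2 difference was 0.06, against 0.05 for all genes tested. The same 5 genes were called for WT UUO against contralateral kidneys, a comparison that shares the WT UUO libraries, where 53.6% of all genes changed, 27.5% higher and 26% lower, and groups did not overlap for 4 of the 9 and 62.6% of all genes. The 9 genes' median there was 0.19, against 0.06 for all genes. Between contralateral and healthy kidneys edgeR called 0 of the 9, where 2.26% of all genes were called; 0 reached an unadjusted p under 0.05, as 17.4% of all genes did, and DESeq2 and limma voom called 0. The largest difference there was that of Car9, -0.74 ± 0.41 (adjusted p = 0.382).

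**Figure D2:**
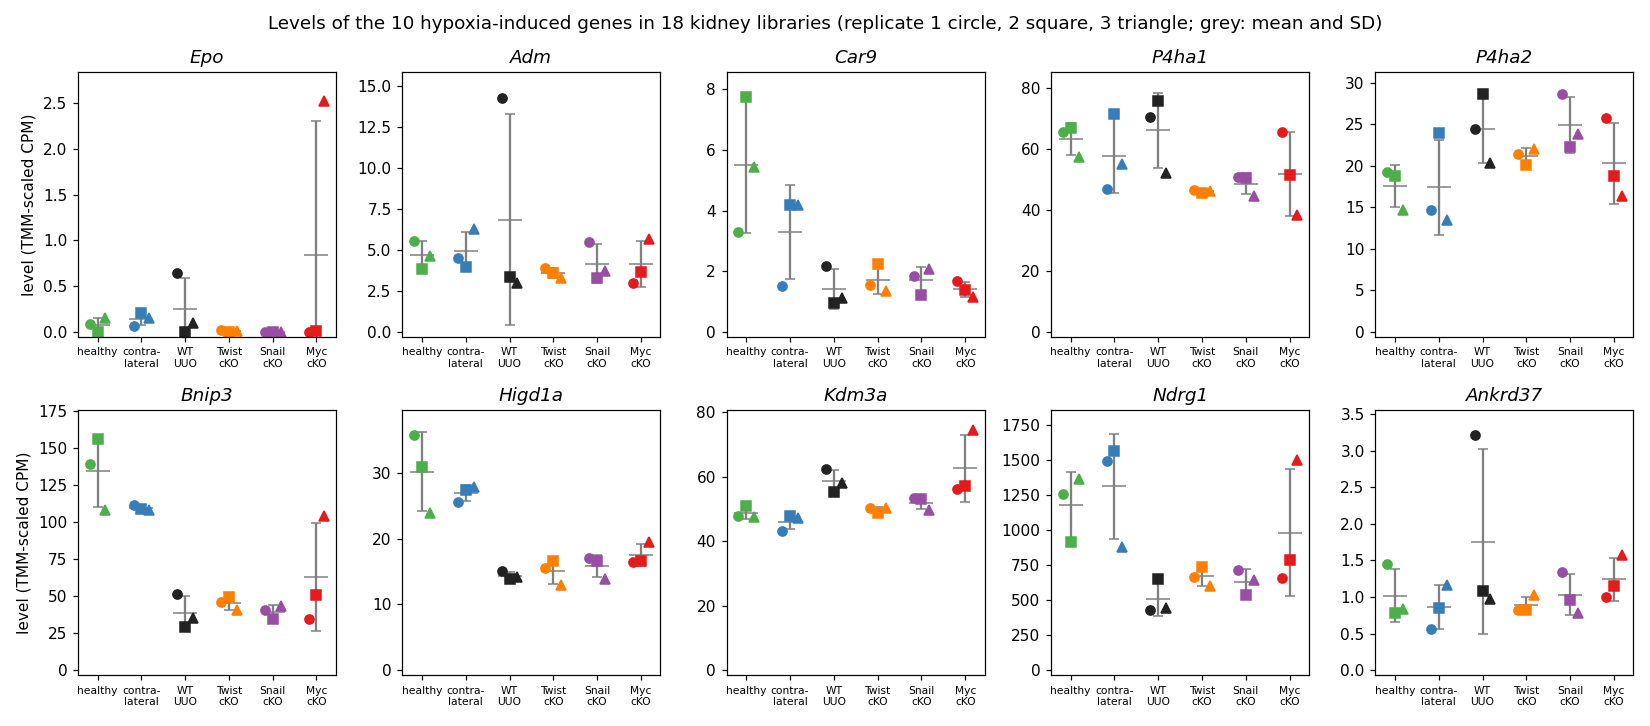
Level of each of the 10 genes in CPM (y axis, linear, a scale for each gene) in the 6 groups (x axis); points are libraries and grey bars the group mean and SD of 3. Bnip3 and Higd1a separate the unobstructed from the WT UUO kidneys completely, whereas Adm and Ankrd37 stand out in 1 library (WT UUO replicate 1) and Epo in 2 (WT UUO replicate 1 and Myc cKO UUO replicate 3).

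Epo encodes erythropoietin, the hormone that drives red cell production and that the adult kidney makes in rare interstitial cells. It was close to the limit of detection, with raw counts of 4, 0 and 10 in healthy kidneys and 4, 11 and 9 in contralateral kidneys. In WT UUO kidneys the counts were 54, 0 and 8. They were 2, 0 and 1 in Twist cKO UUO, 0 in each of the 3 Snail cKO UUO libraries, and 0, 1 and 169 in Myc cKO UUO. Most counts of the obstructed kidneys thus came from 2 libraries, and the level in Myc cKO UUO replicate 3 was 2.52 CPM, against 0.204 CPM in the highest unobstructed library. A count of 0 in a Snail cKO UUO library allows a level of up to 0.0357 to 0.0402 CPM (3 counts), counting error only, so 2 of the 3 healthy libraries and all 3 contralateral libraries lay above that limit. In a fit with no filter on low counts Epo passed the threshold in none of the 9 comparisons, and the lowest adjusted p was 0.198. The annotated Epo locus (chromosome 5, 137483020 to 137533242, in mm10 with GENCODE M21, as for all positions given) shares 104 exon bases with Gnb2 on the same strand. How reads on those bases were counted is not given, and the few Epo counts may be affected.

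Adm (chromosome 7, 110627661 to 110629820) encodes adrenomedullin, a peptide that widens vessels and protects endothelium. Healthy kidneys had 5.53, 3.83 and 4.62 CPM, contralateral kidneys 4.47, 3.98 and 6.25 CPM, and WT UUO kidneys 14.2, 3.32 and 2.96 CPM. The knockouts had 3.91, 3.59 and 3.27 CPM (Twist), 5.49, 3.27 and 3.69 (Snail) and 2.997, 3.65 and 5.69 (Myc). WT UUO replicate 1 was the highest of the 18, at 4.54 times the mean of the other 2 of its group, and those 2 lay below all 6 unobstructed libraries. Adm passed the threshold in no comparison, with a difference of 0.55 ± 0.47 (log2, SE; adjusted p = 0.336) for WT UUO against healthy kidneys. Without WT UUO replicate 1 that difference was -0.56 (adjusted p = 0.127).

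Car9 encodes carbonic anhydrase IX (chromosome 4, 43506966 to 43513729), an enzyme on the cell surface that helps cells export acid. It was scarce, with 77 to 378 counts per library. Its level was 3.30, 7.74 and 5.44 CPM in healthy and 1.503, 4.18 and 4.20 in contralateral kidneys. In WT UUO kidneys it was 2.16, 0.961 and 1.11 CPM, so that every WT UUO library lay below every healthy one. The knockouts had 1.54, 2.24 and 1.36 CPM (Twist), 1.84, 1.22 and 2.06 (Snail) and 1.66, 1.39 and 1.16 (Myc). Car9 fell by 1.96 ± 0.42 (log2, SE; adjusted p = 0.00108) in WT UUO against healthy kidneys, which is 3.88-fold lower in the fit. All 9 knockout libraries also lay below every healthy one. Against contralateral kidneys it fell by 1.22 ± 0.42 (adjusted p = 0.0225), but the groups overlapped, and the adjusted p was 0.0806 to 0.0899 without WT UUO replicate 2 or 3 or contralateral replicate 2 or 3. Gm12454, an antisense gene, shares 214 exon bases with Car9, and the strand setting of the counting is not given in the sources used here.

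P4ha1 (chromosome 10, 59323296 to 59373304) and P4ha2 (chromosome 11, 54100095 to 54131665) encode the catalytic subunits of collagen prolyl 4-hydroxylase, which needs oxygen to stabilise the collagen helix. For P4ha1 the healthy libraries held 65.6, 67.0 and 57.4 CPM, the contralateral ones 47.0, 71.4 and 55.1 CPM and the WT UUO ones 70.6, 75.6 and 52.2 CPM. The Twist cKO libraries held 46.5, 45.7 and 46.1 CPM, the Snail cKO ones 50.8, 50.4 and 44.7 CPM and the Myc cKO ones 65.6, 51.4 and 38.2 CPM. All Twist and Snail cKO libraries lay below all WT UUO libraries, with differences of -0.52 ± 0.18 (adjusted p = 0.106) and -0.44 ± 0.18 (0.273) that did not pass the threshold.

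For P4ha2 the healthy libraries held 19.2, 18.7 and 14.7 CPM, the contralateral ones 14.7, 24.0 and 13.5 CPM and the WT UUO ones 24.4, 28.7 and 20.3 CPM. The Twist cKO libraries held 21.4, 20.1 and 22.0 CPM, the Snail cKO ones 28.7, 22.2 and 23.8 CPM and the Myc cKO ones 25.7, 18.8 and 16.4 CPM. The WT UUO libraries lay above the healthy ones without overlap, and the difference of 0.48 ± 0.21 (adjusted p = 0.0659) missed the threshold. It passed under 4 of the alternatives, among them without WT UUO replicate 3 (0.0381). Over all alternatives it ran from 0.17 to 0.60, with adjusted p up to 0.575. Against contralateral kidneys the difference was 0.49 ± 0.21 (adjusted p = 0.0613), and it passed under 7 alternatives (0.00358 to 0.0401). There it ran from 0.34 to 0.79, with adjusted p up to 0.227. Beside these small differences, Col1a2, a collagen chain that the enzymes modify, rose by 4.59 ± 0.44 in WT UUO against healthy kidneys, and Lox, which crosslinks collagen, by 5.44 ± 0.45. P4ha1 itself differed by only 0.06 ± 0.18 (adjusted p = 0.795) between WT UUO and healthy kidneys.

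Bnip3 (chromosome 7, 138890836 to 138909519) encodes a receptor on the outer mitochondrial membrane that directs mitochondria to autophagy. Its level was 140, 156 and 108 CPM in healthy and 112, 109 and 109 in contralateral kidneys. In WT UUO kidneys it was 51.8, 29.1 and 34.9 CPM, each below the lowest unobstructed library. Bnip3 fell by 1.804 ± 0.31 (log2, SE; adjusted p = 0.00018) against healthy and by 1.51 ± 0.31 (0.000828) against contralateral kidneys. The knockouts had 46.0, 49.7 and 40.4 CPM (Twist), 40.5, 34.6 and 43.4 (Snail) and 34.5, 50.8 and 104 (Myc). Of the 12 obstructed libraries only Myc cKO UUO replicate 3 came near the unobstructed range, at 2.44 times the mean of the other 2 of its group. Beside it stand the proximal tubule markers, which were lower in obstructed kidneys and highest among the Myc cKO libraries in that replicate, and their part in the result was not tested. In bulk RNA, fewer cells of a type and less RNA per cell cannot be told apart.

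Higd1a (chromosome 9, 121848563 to 121858362) encodes a small protein of the inner mitochondrial membrane that stabilises respiratory complexes when oxygen is low. Healthy kidneys had 35.8, 30.9 and 23.9 CPM, contralateral kidneys 25.6, 27.4 and 27.9 CPM, and WT UUO kidneys 15.1, 13.9 and 14.1 CPM. The knockouts lay between 13.0 and 19.5 CPM, below every unobstructed library. Higd1a fell by 1.07 ± 0.13 (adjusted p = 8.06e-06) in WT UUO against healthy and by 0.91 ± 0.13 (4.4e-05) against contralateral kidneys, the smallest adjusted p of the 9 genes in each comparison. Processed copies of Bnip3 (Gm16439, 98.9% identical over 564 bases) and Higd1a (Gm9790, 99.3% over 288 bases) held 152 and 75 counts, against 83670 and 24160 for the genes themselves.

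Kdm3a (chromosome 6, 71588972 to 71632990) encodes a histone demethylase that removes methyl groups from H3K9 and needs oxygen as a cosubstrate. The healthy kidneys had 47.9, 51.0 and 47.4 CPM, the contralateral kidneys 43.3, 47.7 and 47.0 CPM, and the WT UUO kidneys 62.3, 55.3 and 58.0 CPM. It was the single gene of the 9 that rose with obstruction, by 0.26 ± 0.10 (adjusted p = 0.0279) against healthy and 0.35 ± 0.10 (0.0062) against contralateral kidneys, and the groups did not overlap. Against healthy kidneys the adjusted p was 0.0723 to 0.0945 without healthy replicate 1 or 3 or WT UUO replicate 1, and 0.076 with Cre presence as a covariate. The knockouts had 50.4, 48.8 and 50.2 CPM (Twist), 53.2, 53.1 and 49.5 (Snail) and 56.2, 56.96 and 74.5 (Myc). Twist and Snail cKO libraries all lay below WT UUO, with differences of -0.23 ± 0.10 (adjusted p = 0.158) and -0.17 ± 0.10 (0.422), neither past the threshold.

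Ndrg1 (chromosome 15, 66929318 to 66969640) encodes a cytoplasmic protein that restrains growth and is abundant in epithelium. Per kilobase of annotated exon it was the most abundant of the 10 genes, with a median of 110 CPM per kb over the 18 libraries, against 22.2 for Bnip3 and 0.638 for Ankrd37. Its level was 1259, 914 and 1362 CPM in healthy and 1490, 1563 and 881 in contralateral kidneys, and 429, 652 and 445 in WT UUO kidneys. It fell by 1.21 ± 0.29 (adjusted p = 0.00243) and 1.37 ± 0.29 (0.0011) in WT UUO against healthy and contralateral kidneys. The knockouts had 666, 737 and 602 CPM (Twist), 715, 533 and 645 (Snail) and 657, 789 and 1497 (Myc). Every WT UUO, Twist cKO and Snail cKO library lay below every unobstructed one, while Myc cKO UUO replicate 3 lay within the unobstructed range. Gm2895, on the opposite strand, shares 137 exon bases with Ndrg1.

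Ankrd37 (chromosome 8, 45996902 to 46005707) encodes a short ankyrin-repeat protein whose function is little known. It was scarce, with 33 to 272 counts per library. The healthy kidneys had 1.44, 0.778 and 0.837 CPM, the contralateral kidneys 0.564, 0.854 and 1.16 CPM, and the WT UUO kidneys 3.22, 1.09 and 0.966 CPM. The knockouts had 0.822, 0.828 and 1.02 CPM (Twist), 1.34, 0.965 and 0.786 (Snail) and 0.999, 1.15 and 1.57 (Myc). WT UUO replicate 1 was 3.14 times the mean of the other 2 of its group, which lay within the range of the healthy kidneys. The difference from healthy kidneys, 0.79 ± 0.43 (adjusted p = 0.133), did not pass the threshold, though it did without WT UUO replicate 3 (0.0492). That from contralateral kidneys, 1.03 ± 0.43 (0.0568), did not pass either, though it did under 6 alternatives. These were upper-quartile factors (0.0318), an average CPM of at least 1 (0.0416), DESeq2 (0.0406) and the fits without WT UUO replicate 2 (0.0304) or 3 (0.0208) or contralateral replicate 3 (0.0413). Without 1 library the difference ran from 0.0167 to 1.12 against healthy and from 0.25 to 1.32 against contralateral kidneys. Both were lowest without WT UUO replicate 1. Over all alternatives the adjusted p went up to 0.975 and 0.592. Ankrd37 shares 406 exon bases in all with Ufsp2 and Lrp2bp on the opposite strand, and how reads there were counted is not given.

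**Figure D3:**
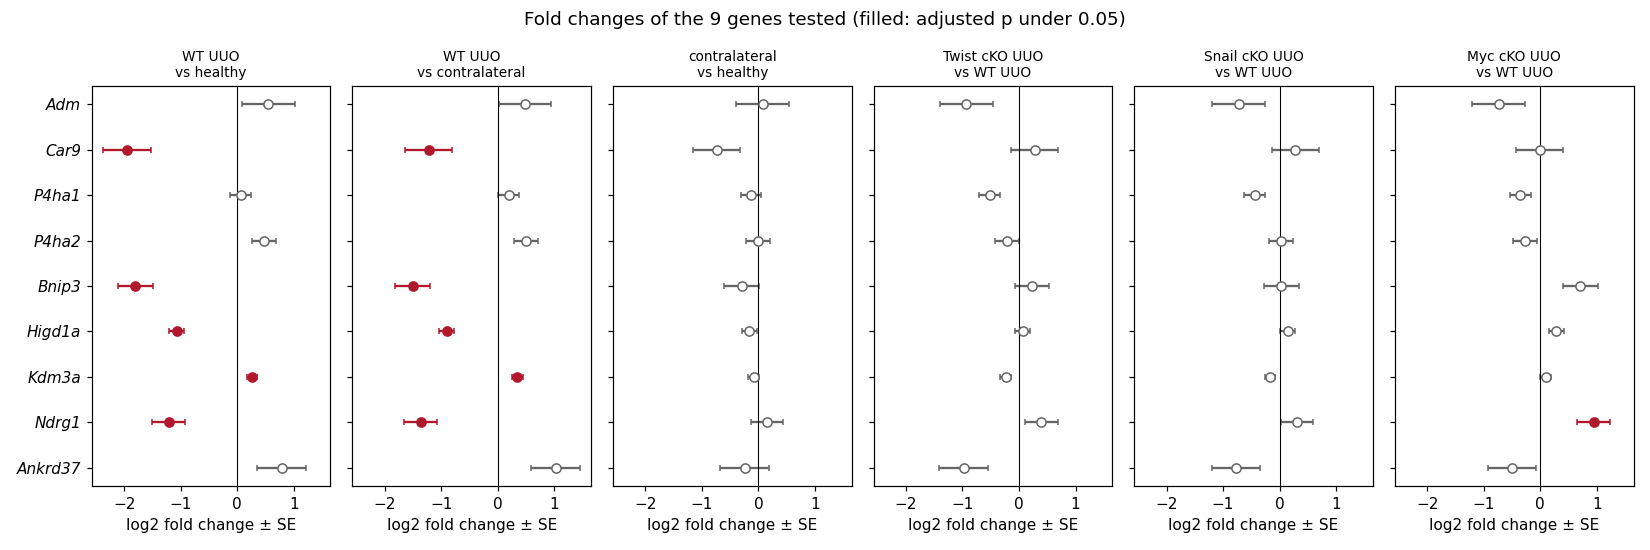
Log2 fold change with SE (x axis) of the 9 genes tested (y axis) in 6 comparisons; filled red points passed an adjusted p of 0.05. The falls of Car9, Bnip3, Higd1a and Ndrg1 and the small rise of Kdm3a are filled in both comparisons of WT UUO with unobstructed kidneys. Among the knockouts Ndrg1 in the Myc cKO comparison is the 1 filled point.

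Each knockout was set against the same 3 WT UUO libraries, all of the Twist line. For Snail and Myc cKO UUO a difference therefore holds the line as well as the deletion, and these cannot be told apart. The Myc group also carried another Cre. In Twist cKO UUO edgeR called 0 of the 9 genes, where 5.28% of all genes were called; P4ha1, Kdm3a and Ankrd37 had an unadjusted p under 0.05, as 22.9% of all genes did, and DESeq2 and limma voom called 0. In Snail cKO UUO it called 0, where 0.299% of all genes were called; P4ha1 alone had an unadjusted p under 0.05, as 14.9% of all genes did, and DESeq2 and limma voom called 0. In Myc cKO UUO it called 1, where 12.2% of all genes were called, 5.31% higher and 6.91% lower. That gene was Ndrg1, which rose by 0.95 ± 0.29 (log2, SE; adjusted p = 0.0463), from a mean of 509 to 981 CPM, with no overlap between the groups. Bnip3, Higd1a and Ndrg1 had an unadjusted p under 0.05, as 27.9% of all genes did. Groups did not overlap for 2 of the 9 in each knockout, P4ha1 and Kdm3a in Twist and Snail cKO UUO and Higd1a and Ndrg1 in Myc cKO UUO, against 32.6%, 24.9% and 31.8% of all genes tested.

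The size of the Ndrg1 difference rested largely on 1 library: without Myc cKO UUO replicate 3 it was 0.51 (adjusted p = 0.268). Without WT UUO replicate 1 or 3 the call was also lost (0.159 and 0.123), at differences of 0.85 and 0.87 that were nearly as large. With WT UUO replicate 1 and Myc cKO UUO replicate 3 both left out, a setting chosen after the data were seen, the difference was 0.40 (adjusted p = 0.537). Bnip3 differed by 0.71 ± 0.30 (adjusted p = 0.144) and passed the threshold when Myc cKO UUO replicate 1 was left out (0.0234), while without replicate 3 the difference was 0.14. Higd1a was higher in all 3 Myc cKO libraries than in any WT UUO library, by 0.29 ± 0.13 (adjusted p = 0.177).

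Set directly against each other, the 3 knockouts gave no call among the 9 genes. Between Twist and Snail cKO UUO edgeR called 0, where 0.171% of all genes were called, with 0 at an unadjusted p under 0.05, as 6.52% of all genes had. Between Myc and Twist cKO UUO it called 0, where 2.99% were called, and Kdm3a alone had an unadjusted p under 0.05, as 17.6% of all genes had (0.33 ± 0.10, adjusted p = 0.0749). Between Myc and Snail cKO UUO it called 0, where 2.45% were called, and Bnip3, Kdm3a and Ndrg1 had an unadjusted p under 0.05, as 17.1% of all genes had. No other tool was run on these 3 comparisons. The Kdm3a libraries of the Myc cKO, 56.2 to 74.5 CPM, lay above all those of the Twist and Snail cKO.

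Against the contralateral kidneys, which the following 3 comparisons share, Bnip3 and Higd1a fell in each knockout. In Twist cKO UUO Bnip3, Higd1a and Ndrg1 fell (-1.27 ± 0.31, -0.84 ± 0.13 and -0.97 ± 0.29), 3 of 9 where 42.9% of all genes were called. In Snail cKO UUO the same genes fell (-1.47 ± 0.31, -0.76 ± 0.13 and -1.06 ± 0.29), where 46.4% were called. In Myc cKO UUO Car9 (-1.23 ± 0.42), Bnip3 (-0.80 ± 0.31) and Higd1a (-0.62 ± 0.13) fell and Kdm3a rose (0.44 ± 0.10), where 44.5% were called. Bnip3 in Myc cKO UUO (adjusted p = 0.046) lost the call without any 1 of contralateral replicate 1, 2 or 3 or Myc cKO UUO replicate 1 or 2 (0.0813 to 0.17). It also lost it with upper-quartile factors (0.0958), without mitochondrially encoded genes (0.0508), with no filter (0.073), with Cre presence as a covariate (0.0583) and with only the 2 groups (0.147). Car9 (0.0268) lost the call without contralateral replicate 2 or 3 or Myc cKO UUO replicate 2 or 3 (0.0733 to 0.0992), with Cre presence (0.0527), with only the 2 groups (0.0618) and by limma voom (0.0637). Ndrg1 in Twist cKO UUO (0.014) lost it without contralateral replicate 2 (0.0591) or Twist cKO UUO replicate 3 (0.0586).

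**Figure D4:**
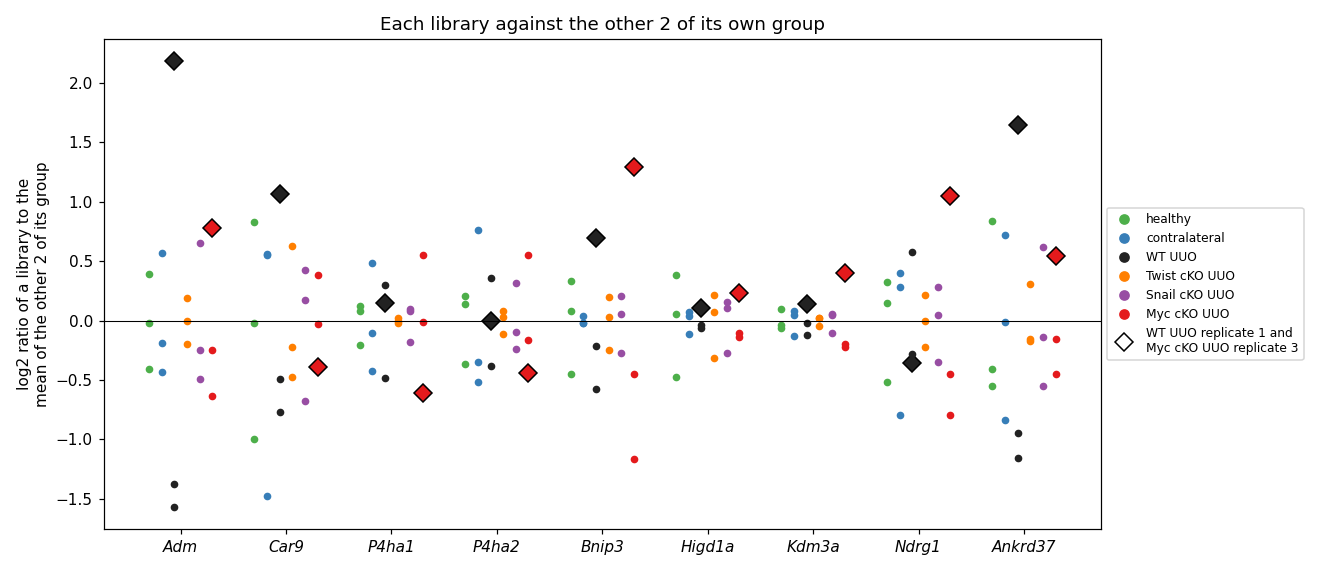
Log2 ratio of each library to the mean of the other 2 libraries of its group (y axis) for the 9 genes tested (x axis), colored by group; diamonds are WT UUO replicate 1 and Myc cKO UUO replicate 3. WT UUO replicate 1 lies at 2.18 for Adm and 1.65 for Ankrd37, and Myc cKO UUO replicate 3 at 1.29 for Bnip3 and 1.05 for Ndrg1.

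Other genes of the pathway were read as lists, in which a gene may appear more than once. Of 10 HIF subunits and oxygen sensors 1 rose and 4 fell with obstruction (WT UUO against healthy), where 29.2% of all genes rose and 27.1% fell, with a median log2 difference of -0.16, against 0.05 for all genes tested, and 2 to 3 fell without 1 library. Egln3, a prolyl hydroxylase that is itself a HIF target, rose by 1.51 ± 0.37 (adjusted p = 0.00292), with 4.82, 4.92 and 3.71 CPM in healthy and 23.0, 7.06 and 8.26 in WT UUO kidneys. Egln1, the main oxygen sensor, fell by 0.59 ± 0.10 (0.00018), and Epas1, the HIF-2 alpha subunit, by 0.37 ± 0.12 (0.0164, and 0.0552 without WT UUO replicate 2). Hif1a (0.29 ± 0.19, adjusted p = 0.207) had 221 CPM in WT UUO replicate 1 and 114 and 125 CPM in the other 2. In Twist cKO UUO against WT UUO Epas1 and Arnt2 rose, by 0.44 ± 0.12 and 0.59 ± 0.16 (adjusted p = 0.0483 and 0.044). Epas1 lost the call without any 1 of the 6 libraries and Arnt2 without 5 of them, with adjusted p up to 0.161 and 0.174 without WT UUO replicate 1.

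Of 19 other HIF targets outside glycolysis 9 rose and 6 fell in the same comparison (median 0.37), where 29.2% of all genes rose and 27.1% fell. Vegfa, the growth factor of vessels, fell from a mean of 160 to 66.3 CPM (-1.27 ± 0.16), Tfrc, the transferrin receptor, by 2.55 ± 0.28 and Car12, a carbonic anhydrase related to Car9, by 2.37 ± 0.23, while Lox rose. Car12 was higher in Twist (1.19 ± 0.23, adjusted p = 0.0177) and Myc cKO UUO (1.12 ± 0.23, 0.0076) than in WT UUO. The Twist call was lost in 2 of the 6 fits without 1 library (adjusted p up to 0.0935, without WT UUO replicate 1) and the Myc call in 0. In Twist cKO UUO against WT UUO 1 of these 19 rose and 3 fell, where 2.97% of all genes rose and 2.31% fell, and without 1 library 0 to 4 fell. In Myc cKO UUO 1 rose and 4 fell, where 5.31% of all genes rose and 6.91% fell, and without 1 library 1 to 4 fell.

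Of 15 glycolysis genes 4 rose and 7 fell against healthy kidneys (median -0.40), beside 29.2% and 27.1% of all genes. Hk2 rose by 5.42 ± 0.42 while Gapdh and Pgk1 fell by 1.10 ± 0.14 and 1.38 ± 0.20. In WT UUO replicate 1 all 15 glycolysis genes and 16 of the 19 other targets were the highest of the group, against 32.5% of all genes tested. The same held for 12 of 15 and 13 of 19 in Myc cKO UUO replicate 3 (39.3% of all genes) and for 14 of 15 and 9 of 19 in Snail cKO UUO replicate 1 (32.9%). In Twist and Myc cKO UUO against WT UUO 2 and 3 of the 15 fell and 0 rose, where 2.31% and 6.91% of all genes fell, and without 1 library 0 to 3 and 0 to 4 fell.

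Of 18 relatives of the members, such as other carbonic anhydrases, 4 rose and 8 fell in WT UUO against healthy kidneys (median -0.47), beside the 29.2% and 27.1% of all genes given above. Car2, a cytosolic carbonic anhydrase, fell by 1.77 ± 0.16 and Ndrg3 by 1.35 ± 0.10, while Bnip2 rose by 0.89 ± 0.08. In Myc cKO UUO against WT UUO the 4 relatives that rose were the carbonic anhydrases Car2 (0.78 ± 0.16), Car4 (1.67 ± 0.40), Car12 and Car14 (2.30 ± 0.56), where 5.31% of all genes rose, and 2 to 5 rose without 1 library. Another 2 relatives fell there, where 6.91% of all genes fell, and 0 to 2 fell without 1 library. In Twist cKO UUO 4 rose, where 2.97% of all genes did, among them Car2 (0.67 ± 0.16), Car12 and Car14 (2.27 ± 0.56), but 0 to 3 did without 1 library. There 1 relative fell, where 2.31% of all genes fell, and 0 to 2 fell without 1 library. The summed proximal tubule markers were also higher in these knockouts than in WT UUO. They were higher in Snail cKO UUO as well (1521 to 2445 CPM, against 636 to 1477), where edgeR called 0 relatives. The part of these markers in the result was not tested.

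Mitophagy is the removal of mitochondria by autophagy, for which Bnip3 is a receptor. Of 11 mitophagy genes 7 fell and 0 rose with obstruction, against healthy kidneys (median -0.38), where 27.1% of all genes tested fell. Pink1, a kinase that marks damaged mitochondria, fell by 1.44 ± 0.19 and Park2, the ubiquitin ligase it recruits, by 1.49 ± 0.19. Bcl2l13, a further mitophagy receptor, fell by 0.66 ± 0.09 and Phb2, of the inner membrane, by 0.69 ± 0.12. In the knockouts against WT UUO edgeR called 0 of the 11, with 2, 0 and 1 at an unadjusted p under 0.05 in Twist, Snail and Myc cKO UUO, DESeq2 called 1, 0 and 1 and limma voom 0. Of 13 partners and receptors of the members, such as collagen chains, lysyl hydroxylases and the adrenomedullin receptor, 10 rose with obstruction and 0 fell, against healthy kidneys (median 1.39), where 29.2% of all genes rose. The fibroblast and pericyte markers given above were higher in the same kidneys, and their part in the result was not tested. Against WT UUO 6 of these 13 fell in Twist, where 2.31% of all genes fell, 0 changed in Snail and 7 fell in Myc cKO UUO, where 6.91% fell. The summed fibroblast and pericyte markers were also lower there, at 1398 to 2491 CPM in WT UUO, 842 to 947 in Twist, 1036 to 1366 in Snail and 511 to 1288 in Myc cKO UUO, and their part in the result was not tested. In the Snail comparison edgeR called 0 genes of the HIF, other target, glycolysis, relative, partner and mitophagy lists, with 2, 6, 3, 5, 7 and 0 at an unadjusted p under 0.05. DESeq2 called 0, 2, 2, 1, 2 and 0 of them there and limma voom 0. Between contralateral and healthy kidneys Kdm4b (0.42 ± 0.09, adjusted p = 0.0244) and Col4a1 (0.69 ± 0.17, 0.0456) rose, and no other gene of these lists was called by edgeR. Each of these calls was lost in 4 of the 6 fits without 1 library, with adjusted p up to 0.113 for Kdm4b and 0.185 for Col4a1, both without healthy replicate 2. Without 1 library the partners that fell numbered 0 to 6 in Twist and 3 to 7 in Myc cKO UUO, the lowest without Twist cKO UUO replicate 2 and WT UUO replicate 1. Plod1, a lysyl hydroxylase, fell by 0.52 ± 0.12 (adjusted p = 0.0261) in Twist and 0.88 ± 0.12 (0.00151) in Myc cKO UUO.

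**Figure D5:**
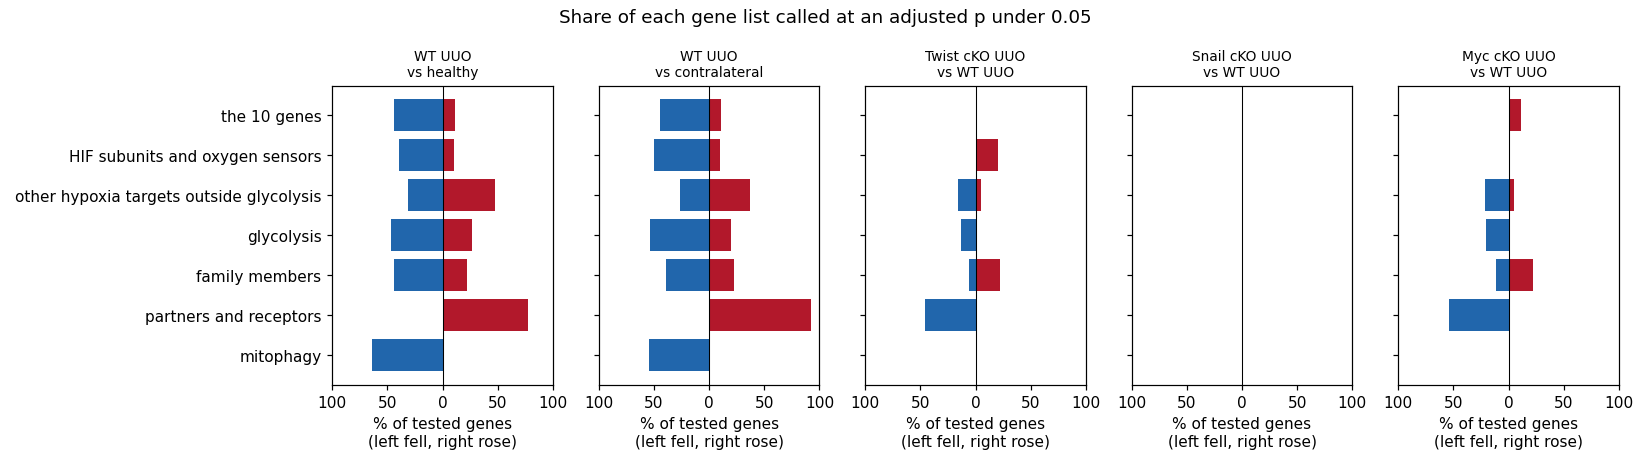
Percent of the tested genes of each list that rose (red, to the right) or fell (blue, to the left) at an adjusted p under 0.05 (x axis) in 5 comparisons, with the lists on the y axis. Of the 9 genes tested more fell than rose in both comparisons of WT UUO with unobstructed kidneys, and in the Snail cKO comparison 0 genes of any list were called.

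For each gene the tested genes most like it in log2 CPM over the 18 libraries were looked up, as a description of values that share the depth and scaling of each library. P4ha1 was most like Manf (Pearson r = 0.90), Pdia3 and Hspa5 (0.88 each), all genes of protein folding in the endoplasmic reticulum, and r was 0.83 to 0.85 without the 2 farthest libraries. P4ha2 was most like Rhoq (0.89), Clic4 (0.89) and Hs6st2 (0.87). Adm was most like Hif1a (0.83), which fell to 0.38 without WT UUO replicate 1 and contralateral replicate 3, so that likeness rested on those libraries. Its r was 0.82 with Fam110c and 0.79 with Ero1l, an oxidase of protein folding and a HIF target, and 0.63 and 0.69 without them. Kdm3a was most like Iws1 (0.92), Chfr and Kdm5a (0.91 each), and r was 0.77 to 0.82 without Myc cKO UUO replicate 3 and WT UUO replicate 1. Ankrd37 was most like Zfand2a (0.81), Adm (0.80) and Hif1a (0.79), and these were 0.49, 0.32 and 0.24 without WT UUO replicate 1 and Myc cKO UUO replicate 3. For Higd1a the obstructed and unobstructed kidneys formed separate levels. For Bnip3 they did not overlap either, but Myc cKO UUO replicate 3 (104 CPM) came near the lowest unobstructed library (108 CPM). For Car9 and Ndrg1 they were separate but for 1 library each (contralateral replicate 1 and Myc cKO UUO replicate 3). No r over the 18 libraries is therefore given for Higd1a, Bnip3, Car9 and Ndrg1.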

How the data were processed

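Raw counts per gene were deposited by the authors for 18 libraries; the submitters' processing notes list HTSeq, bcl2fastq 1.8.4, mm10 and DESeq2, while the aligner, the annotation and whether strand was used in counting were not given in the sources used here. Of 24 columns, 6 matched no sample and were not used. The test was that of edgeR 4.0.16 (R 4.3.3): filterByExpr (21050 genes), TMM scaling, 1 robust quasi-likelihood fit with 6 group means and 12 residual degrees of freedom, and two-sided p-values adjusted by Benjamini-Hochberg over all genes tested. A gene was called to rise or fall at an adjusted p under 0.05. Levels are TMM-scaled CPM, with SD over 3 libraries, and ± after a log2 difference is the SE. Positions and exons came from GENCODE M21 (mm10). Replicate numbers only name the samples, in the order of their records. An exact permutation test of 3 against 3 cannot go below 0.1, so none was used. Alternatives were RLE and upper-quartile factors, mitochondrially encoded genes removed, no filter or an average CPM of at least 1, DESeq2 1.42.0, limma voom (limma 3.58.1), sex or Cre presence as a covariate, only the 2 groups compared, a 2-fold minimum and each library left out. Sex for the covariate was read from the counts of Xist and Ddx3y. By these counts 2 of 3 libraries were male in Snail and in Myc cKO UUO, Myc cKO UUO replicate 3 among them. In every other group 1 of 3 was. The steps were tested on counts simulated for Myc cKO UUO against WT UUO only, with few genes changed. A change of as many genes as with obstruction was not simulated. The genes and lists were chosen with earlier results of these data known. All 10 genes are named; of each other list, genes among the 4 with the smallest p per comparison and Hif1a, Epas1, Vegfa, Hk2, Pgk1 and Ldha; and the 3 genes most like each member.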

Additional observations from a re-analysis of the deposited data

How the results depend on the processing

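Counting error is largest for Epo, Ankrd37 and Car9, and with 3 libraries a group a small difference can be missed. No paired analysis was possible because the labels number no replicates (the numbers used here only name samples in the order of their records) and do not say which kidneys shared an animal. Upper-quartile factors moved the median of all genes by 0.11 to 0.17 (log2) in the comparisons of obstructed with unobstructed kidneys, and no called gene changed direction. With these factors Bnip3 in Myc cKO UUO against contralateral kidneys was no longer called (adjusted p = 0.0958), and P4ha2 in WT UUO against healthy (0.0212) and contralateral kidneys (0.0127) and Ankrd37 against contralateral kidneys (0.0318) were. The falls of Bnip3, Higd1a and Ndrg1 in WT UUO against healthy and contralateral kidneys, and of Car9 against healthy kidneys, stayed past the threshold under every alternative except the 2-fold minimum, which the Higd1a difference of -0.91 from contralateral kidneys does not reach.

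The number of the 9 genes called in WT UUO against contralateral kidneys was 3 with a 2-fold minimum. For Myc cKO UUO against WT UUO it was 0 with no filter, with sex or Cre presence as a covariate, by limma voom, with only the 2 groups, with a 2-fold minimum and without WT UUO replicate 1 and Myc cKO UUO replicate 3 together, and 0 to 2 without 1 library. Against contralateral kidneys it was 1 with a 2-fold minimum for Twist cKO UUO, 5 with upper-quartile factors or DESeq2 for Snail cKO UUO, and 2 with Cre presence or only the 2 groups, 1 with a 2-fold minimum and 2 to 4 without 1 library for Myc cKO UUO. Over all genes the called count ran over the alternatives from 3 to 1333 for contralateral against healthy kidneys (476 in the main analysis), 13 to 2451 for Twist (1111), 11 to 791 for Snail (63) and 5 to 3817 for Myc cKO UUO (2572) against WT UUO. The highest counts came from DESeq2 and the lowest from fits of 2 groups, or, for Twist, without WT UUO replicate 1.

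The differences that changed sign did not pass the threshold in either setting, and the cause was not tested. Without 1 library, in WT UUO against healthy kidneys Adm ran from -0.56 to 0.92 and P4ha1 from -0.0424 to 0.21. In contralateral against healthy kidneys Adm ran from -0.14 to 0.21, P4ha2 from -0.315 to 0.14 and Ankrd37 from -0.52 to 0.092. In WT UUO against contralateral kidneys Adm ran from -0.64 to 0.84. In Twist cKO UUO against WT UUO Adm ran from -1.28 to 0.20 and Higd1a from -0.0098 to 0.18. In Snail cKO UUO against WT UUO Adm ran from -1.07 to 0.41, P4ha2 from -0.0867 to 0.17, Bnip3 from -0.12 to 0.31 and Ankrd37 from -1.05 to 0.0129. In Myc cKO UUO against WT UUO Adm ran from -1.08 to 0.40, Car9 from -0.20 to 0.46, Kdm3a from -0.0486 to 0.18 and Ankrd37 from -0.78 to 0.29. With Cre presence as a covariate P4ha1 was -0.15 in WT UUO against healthy kidneys, Adm -0.13 and Ndrg1 -0.24 in contralateral against healthy kidneys, and P4ha2 -0.11 and Bnip3 -0.00308 in Snail cKO UUO against WT UUO. With sex as a covariate P4ha2 and Bnip3 were -0.0579 and -0.0219 there. Car9 in Myc cKO UUO against WT UUO, -0.01 in the main analysis, was 0.000834 with RLE factors, 0.000831 by DESeq2, 0.0141 with upper-quartile factors, 0.0105 without mitochondrially encoded genes, 0.0129 with Cre presence, 0.00641 with only the 2 groups and 0.0695 by limma voom. Without WT UUO replicate 1 and Myc cKO UUO replicate 3 together it was 0.56, Adm 0.0823, Kdm3a -0.0015 and Ankrd37 0.0704.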
